A study of Mus musculus with 50 samples.

Results

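The receptors described here are 7 mouse genes chosen by name: the serotonin receptors Htr1b, Htr1d, Htr2a, Htr3a and Htr3b and the adrenergic receptors Adra2a and Adra2c. All probe sets annotated to them were taken, which gave 11 probe sets for 5 of the 7 genes, of 45037 probe sets without controls and 18193 genes in all. No probe set is listed for Htr2a or Adra2a in the probe table used, and they are not analysed here. Levels were read in dorsal root ganglia of 25 inbred mouse strains, with 1 male pool and 1 female pool for each strain, 50 arrays in all. Every pool held RNA of 3 wild-type mice of 2 months of age that had received no treatment. The strains, spelled as in the labels, were 129S1/Sv1mJ, A/J, AKR/J, BALB/CByJ, BTBT T+tf/J, BUB/BnJ, C3H/HeJ, c57BL/6J, C57BR/cdJ, C58/J, CBA/J, DBA/2J, FVB/NJ, KK/HIJ, MRL/MpJ, NOD/LtJ, NON/LtJ, NZO/HILtJ, NZW/LacJ, P/J, PL/J, RIIIS/J, SJL/J, SM/J and SWR/J. A pool averages its mice, so the spread between single mice is not seen.

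Dorsal root ganglia hold the cell bodies of the sensory neurons that carry touch, position, temperature, itch and pain. Serotonin reaches these neurons from platelets and mast cells in the periphery and from descending fibres in the spinal cord. Htr3a and Htr3b encode subunits of the serotonin-gated cation channel, the only ligand-gated ion channel among serotonin receptors: the A subunit forms channels alone, and the B subunit forms them only together with A. Htr1b and Htr1d encode receptors coupled to inhibitory G proteins, the targets of the triptan drugs against migraine. Adra2c encodes an alpha-2 adrenergic receptor, which couples to the same G proteins and binds noradrenaline.

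The promoters of the genes whose level differed among strains are shown first, to put sequence beside the level of each gene. They are RefSeq sequences of build GRCm38.p6, from 250 bases before to 50 bases after each annotated start, and the table lists a promoter for 6 of the 7 genes, with 2 starts for Htr1d. Htr3a has no entry. Capitals mark matches, on either strand, to a GC box (GGGCGG or CCGCCC) or a CCAAT box (CCAAT or ATTGG). The TATA box TATAAA and the homeodomain core TAATTA were searched as well.
Htr3b, chr9:48964941-48965240, minus strand: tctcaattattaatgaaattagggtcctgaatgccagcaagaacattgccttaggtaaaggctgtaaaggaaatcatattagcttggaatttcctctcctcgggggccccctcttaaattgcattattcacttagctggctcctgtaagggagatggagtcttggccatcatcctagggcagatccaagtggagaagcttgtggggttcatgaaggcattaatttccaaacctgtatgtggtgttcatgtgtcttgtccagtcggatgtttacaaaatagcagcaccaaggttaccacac
Htr1d, first start, chr4:136423274-136423573, plus strand: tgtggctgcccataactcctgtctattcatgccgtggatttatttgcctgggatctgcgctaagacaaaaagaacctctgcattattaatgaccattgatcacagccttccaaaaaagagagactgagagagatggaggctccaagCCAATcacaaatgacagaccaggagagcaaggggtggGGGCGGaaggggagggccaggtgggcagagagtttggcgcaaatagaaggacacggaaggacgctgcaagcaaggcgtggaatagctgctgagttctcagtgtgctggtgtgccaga
Htr1d, second start, chr4:136424362-136424661, plus strand: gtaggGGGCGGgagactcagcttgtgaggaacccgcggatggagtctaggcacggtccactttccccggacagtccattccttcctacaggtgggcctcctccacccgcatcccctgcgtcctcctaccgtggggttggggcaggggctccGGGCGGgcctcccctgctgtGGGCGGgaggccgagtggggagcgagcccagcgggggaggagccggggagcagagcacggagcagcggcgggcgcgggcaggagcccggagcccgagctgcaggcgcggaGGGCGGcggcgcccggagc
Htr1b, chr9:81633783-81634082, minus strand: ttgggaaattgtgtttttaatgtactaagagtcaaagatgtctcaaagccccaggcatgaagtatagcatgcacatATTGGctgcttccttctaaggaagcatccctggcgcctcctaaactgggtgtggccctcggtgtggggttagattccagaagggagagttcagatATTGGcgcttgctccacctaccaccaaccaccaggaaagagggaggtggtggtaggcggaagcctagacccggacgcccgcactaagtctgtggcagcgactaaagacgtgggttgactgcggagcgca
The Htr3b window held none of the 4 motifs. The first Htr1d window held 1 GC box and 1 CCAAT box, the second held 4 GC boxes, and the Htr1b window held 2 CCAAT boxes. Of the 32851 promoters in the table, 35.7% held the GC box, 37.4% the CCAAT box, 13.6% TATAAA and 5.29% TAATTA. GC content was 44.3% for Htr3b, 52% and 74.3% for Htr1d and 53.3% for Htr1b, against a median of 52.7% over all promoters. A match is a description of the letters and no evidence of binding.

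All levels are log2 of the deposited intensity plus 1, and they are read within a probe set, since probe sets differ in how brightly they bind. A probe set was tested when its level was above 4 in at least 2 of the 50 arrays. Of the 11 probe sets, 7 were tested and 4 were never above 4 in any array. The 4 are 1422335_at, 1439762_x_at and 1457328_at of Adra2c, whose highest values were 3.51, 2.64 and 2.80, and 1422288_at of Htr1b, whose highest value was 3.94. For Htr1b the level therefore rests on 1442077_at alone, and for Adra2c on 1435296_at. The strip plot of all 11 probe sets shows which of them spread over strains.

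**Figure D1:**
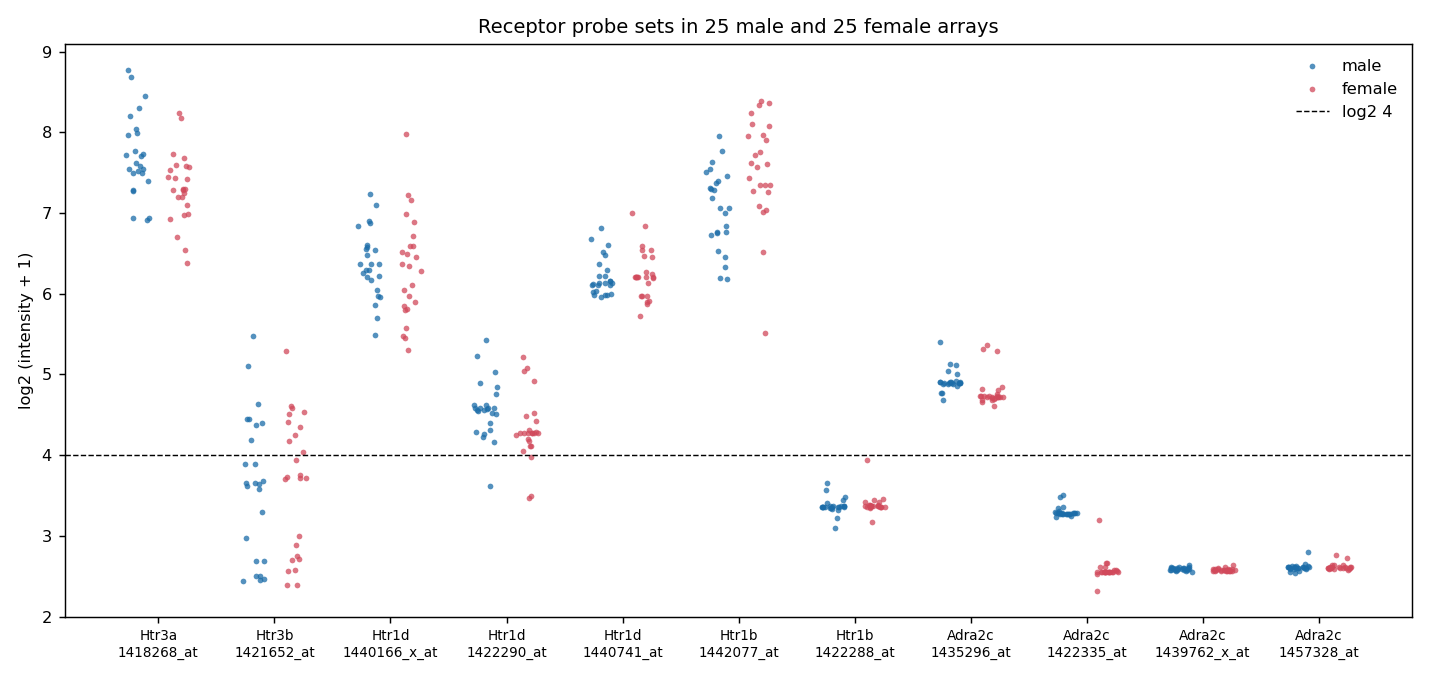
Values of the 11 probe sets of Htr3a, Htr3b, Htr1d, Htr1b and Adra2c, as log2 (intensity + 1), in 25 male arrays (left, blue) and 25 female arrays (right, red), with sideways jitter only for legibility. The dashed line is log2 4; 4 probe sets lie wholly below it, and those of Htr3b and 1422290_at of Htr1d cross it.

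Among the tested receptors, 4 of 5 genes and 5 of 7 probe sets differed among strains in limma's moderated F test, with sex as a term and adjusted p below 0.05. Over all tested features, the same test called 26.1% of 11204 genes and 24.7% of 22205 probe sets. The genes called were Htr3a, Htr3b, Htr1d and Htr1b, and Adra2c was not called. The median range of strain means was 1.86 over the 5 receptor genes and 0.82 over all tested genes. The median correlation of male with female values over strains was 0.73 for the 5 receptor genes and 0.26 for all tested genes. These medians describe genes that were chosen by name with earlier results of these data known.

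Htr3b ranged over 2.61 log2 units of strain means (adjusted p = 2.49e-06). With a pseudocount of 16 in place of 1 the range was 1.24 and still called (adjusted p = 0.000244), below the 2.05 of Htr1b, so its size depends on how low values are scaled. Male pools ran from 2.44 to 5.47 with a median of 3.65, and female pools from 2.39 to 5.29 with a median of 3.73. The level was above 4 in both pools of 6 strains, in 1 pool of 6 others, and in neither pool of 13 strains, 18 arrays in all. C57BR/cdJ was highest at 5.03 ± 0.63 (SD, n = 2 pools), with 5.47 in males and 4.59 in females. NZO/HILtJ followed at 4.59 ± 0.99, with 3.89 in males and 5.29 in females, and c57BL/6J at 4.53 ± 0.16, with 4.64 in males and 4.41 in females. The pools of NZO/HILtJ lay further apart than those of any other strain for this gene, and its rank depends on which pool is read.

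The lowest Htr3b values were those of NZW/LacJ at 2.42 ± 0.04, DBA/2J at 2.51 ± 0.09 and KK/HIJ at 2.53 ± 0.04 (SD, n = 2 pools each). All lie below the level of 4 used as the filter, and no order of expression is read among the 13 strains without a pool above it. In these 3 strains both pools were low, with male values of 2.44, 2.45 and 2.50 and female values of 2.39, 2.58 and 2.56, in the same order. The widest step in the order of the values, 0.67, lay between C3H/HeJ at 3.00 and BUB/BnJ at 3.67. Both strains are among these 13, so the step is one of values on this scale and not of expression. Below the step stood 9 strains, with 2.44 to 3.29 in males and 2.39 to 3.00 in females. Above it stood 16 strains, with 3.58 to 5.47 in males and 3.71 to 5.29 in females. The step was chosen as the widest in the means of these same pools, which favours a separation. The pools on either side of it did not overlap in either sex. The step was nevertheless smaller than 0.78, the half-width of the 95% interval of a difference between any pair of strains, and none of the 24 steps between neighbours in the order exceeded that half-width. Neighbours in the order were therefore not told apart, while strains at its ends were.

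Htr3a ranged over 1.67 log2 units of strain means (adjusted p = 7.49e-05). Male pools ran from 6.91 to 8.77 with a median of 7.62, and female pools from 6.38 to 8.24 with a median of 7.30. The top was held by C57BR/cdJ, with 8.77 in males and 8.18 in females (mean 8.47 ± 0.42), and c57BL/6J, with 8.68 in males and 8.24 in females (mean 8.46 ± 0.31; SD, n = 2 pools each). Both pools of these strains were above every female pool of all other strains, while the male pools of NOD/LtJ (8.46), BUB/BnJ (8.30) and P/J (8.20) were above the female pool of C57BR/cdJ. NOD/LtJ came next at 8.02 ± 0.62. The lowest were PL/J at 6.81 ± 0.15, C3H/HeJ at 6.83 ± 0.64 and KK/HIJ at 6.94 ± 0.01. No step between neighbours exceeded the half-width of 0.50. The widest, 0.44, lay between NOD/LtJ and c57BL/6J.

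**Figure D2:**
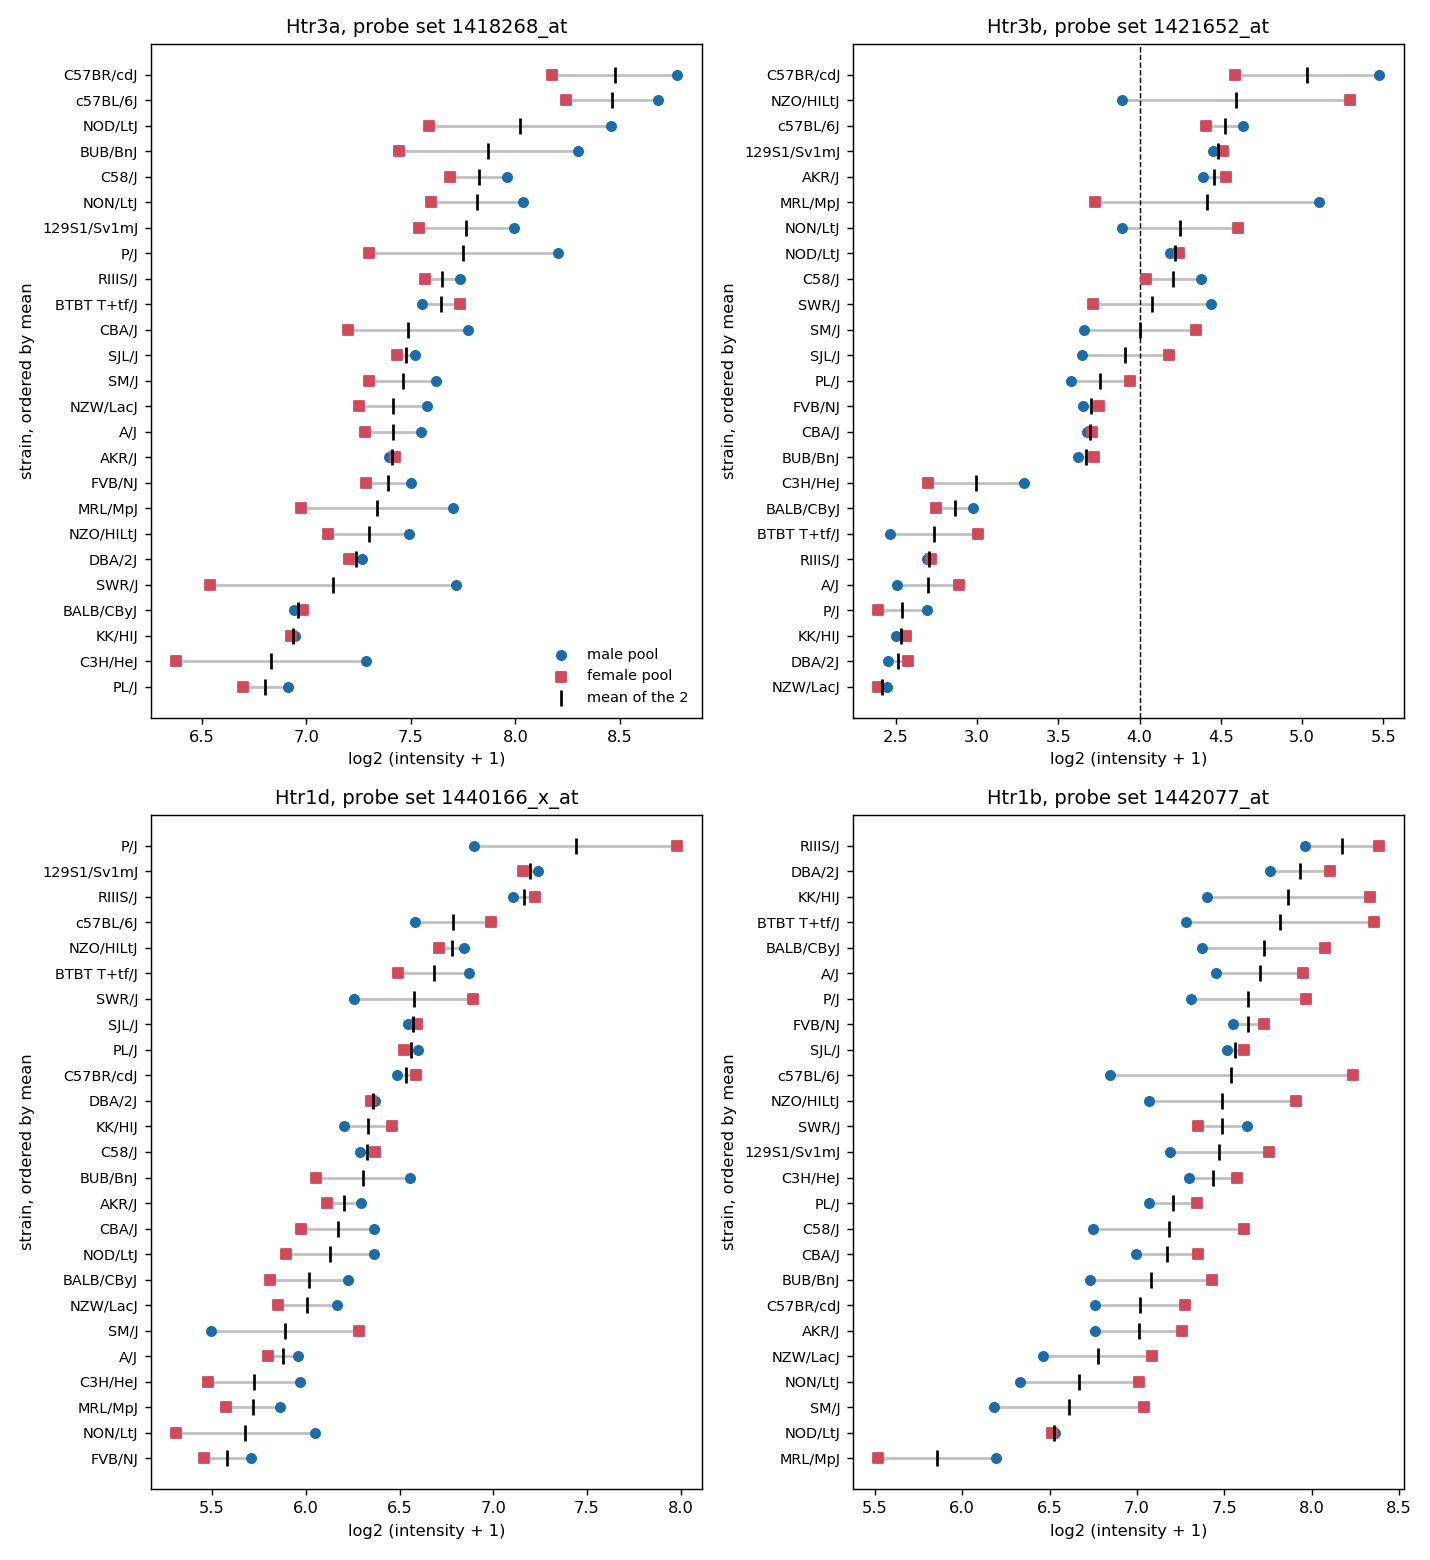
Levels of Htr3a, Htr3b, Htr1d and Htr1b, as log2 (intensity + 1), in the male pool (blue circle) and female pool (red square) of each of 25 strains, ordered by their mean (black bar). The dashed line in the Htr3b panel is log2 4. C57BR/cdJ is highest for both channel subunits, P/J is highest for Htr1d as read by 1440166_x_at, and MRL/MpJ is lowest for Htr1b. By 1422290_at of Htr1d, P/J ranks 21 of 25 strains from the highest.

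Htr1d was read by 3 tested probe sets, and they did not give the same strain order. The brightest was 1440166_x_at, whose suffix marks probes that can also match other transcripts. It ranged over 1.86 log2 units (adjusted p = 0.000196), with 5.49 to 7.24 in males (median 6.37) and 5.31 to 7.98 in females (median 6.35). P/J was highest at 7.44 ± 0.76, with 6.90 in males and 7.98 in females, followed by 129S1/Sv1mJ at 7.20 ± 0.06 and RIIIS/J at 7.16 ± 0.08. The lowest were FVB/NJ at 5.58 ± 0.18, NON/LtJ at 5.68 ± 0.52 and MRL/MpJ at 5.72 ± 0.20 (SD, n = 2 pools each). In males P/J stood below 129S1/Sv1mJ and RIIIS/J, and it was highest in females only. No neighbouring strains differed by more than the half-width of 0.60.

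The probe set 1440741_at of Htr1d followed the brightest one, with r = 0.91 over 25 strain means (rho = 0.91). It ranged over 0.88 log2 units (adjusted p = 0.00432), again with P/J at the top and FVB/NJ at the bottom. The third, 1422290_at, ranged over 1.45 log2 units and was not called (adjusted p = 0.133). It correlated with the brightest at r = 0.33 (rho = 0.24), and RIIIS/J at 5.32 and BTBT T+tf/J at 3.87 stood at its ends. It was called with array quality weights (adjusted p = 0.0173), without the male P/J array (adjusted p = 0.0177) and without the female P/J array (adjusted p = 0.0418), and its P/J pools differed by 1.43. Only 1422290_at targets a RefSeq transcript of Htr1d by its accession, and whether the other probe sets read another part of the transcript was not tested. The ratio of 3' to 5' signal of Gapdh, high where RNA is degraded, was highest in the male BTBT T+tf/J and female P/J arrays. Both lay above the other pool of their strain in 1440166_x_at (6.87 against 6.49 and 7.98 against 6.90). In 1422290_at both lay below it (3.61 against 4.12 and 3.47 against 4.90). The part of RNA quality in the strain orders of Htr1d was not tested.

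Htr1b, read by 1442077_at, ranged over 2.32 log2 units of strain means (adjusted p = 7.32e-05). Male pools ran from 6.18 to 7.96 with a median of 7.07, and female pools from 5.52 to 8.39 with a median of 7.61. RIIIS/J was highest at 8.17 ± 0.30, then DBA/2J at 7.94 ± 0.24 and KK/HIJ at 7.87 ± 0.66. The lowest was MRL/MpJ at 5.86 ± 0.48, with 6.20 in males and 5.52 in females, then NOD/LtJ at 6.52 ± 0.01 and SM/J at 6.61 ± 0.61 (SD, n = 2 pools each). The step between MRL/MpJ and NOD/LtJ, 0.67, was the only 1 of 24 that exceeded the half-width, 0.60. In males SM/J, at 6.18, lay just below MRL/MpJ, and the separation of MRL/MpJ was seen in females.

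The Htr1b probe set that targets the gene's RefSeq transcript, 1422288_at, stayed between 3.10 and 3.94 in all arrays, and its strain means did not follow those of 1442077_at (r = -0.13, rho = -0.0008, permutation p = 0.540 for r, two-sided). The values of Htr1b in all sentences on strains are thus those of 1 probe set whose target is an expressed sequence tag assigned to the gene.

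The Adra2c probe set 1435296_at varied little. Male pools ran from 4.69 to 5.40 with a median of 4.90, and female pools from 4.60 to 5.37 with a median of 4.73, and 34 of the 50 arrays lay within 0.05 of the median of their sex. The range of strain means was 0.44 (adjusted p = 0.480), from DBA/2J at 4.70 ± 0.03 through NOD/LtJ at 4.75 ± 0.03 and AKR/J at 4.75 ± 0.21 to c57BL/6J at 5.11 ± 0.29, P/J at 5.14 ± 0.33 and PL/J at 5.15 ± 0.21 (SD, n = 2 pools each). No neighbouring strains differed beyond the half-width of 0.35. Only 1422335_at targets a RefSeq transcript of Adra2c by its accession. It was never above 4, and it correlated with 1435296_at at r = 0.35 over 25 strain means (rho = 0.23).

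The 2 pools of a strain agreed for the 4 called genes and not for Adra2c. The strain test sets the spread between strains against the spread between these same pools. This agreement therefore restates its calls and is no separate evidence for them. Over 25 strains, male and female values correlated at r = 0.78 for Htr3b (rho = 0.78), 0.74 for Htr1d (rho = 0.80), 0.73 for Htr1b (rho = 0.74) and 0.72 for Htr3a (rho = 0.69). In two-sided permutation tests with adjustment over the 7 tested probe sets, these gave adjusted p-values of 7e-05, 0.000105, 7e-05 and 0.000105. For Adra2c r was 0.12 (rho = 0.32, adjusted permutation p = 0.517). The other Htr1d probe sets gave r = 0.62 for 1440741_at (rho = 0.63, adjusted p = 0.00172) and r = 0.28 for 1422290_at (rho = 0.20, adjusted p = 0.210). Without the 2 strains farthest from the median, r was 0.76 for Htr3b, 0.69 for Htr1d, 0.69 for Htr1b and 0.56 for Htr3a (without C57BR/cdJ and c57BL/6J).

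**Figure D3:**
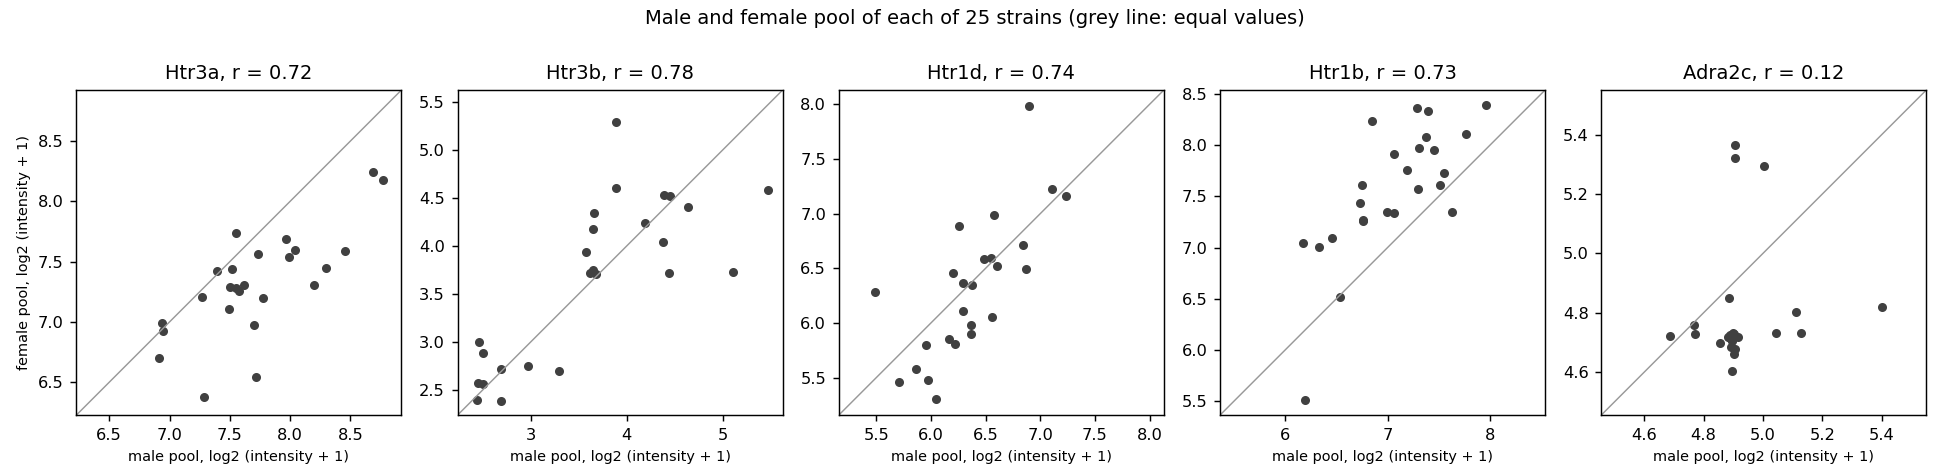
Male pool (horizontal) against female pool (vertical) of each of 25 strains for Htr3a, Htr3b, Htr1d, Htr1b and Adra2c, as log2 (intensity + 1), with the line of equal values in grey. Htr3a points lie mostly below the line (males higher) and Htr1b points mostly above it (females higher), while Adra2c points gather in a small area.

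Next, the level in each single strain was set against the average of all others (24), and a difference was called at an adjusted p below 0.05, over all probe sets and strains, and at least 1 log2 unit. Of the 175 pairs of receptor probe set and strain, 7 were called, 2 higher and 5 lower, against 1.14% of 555125 pairs over all probe sets. Htr3a gave none, by size alone. It was 0.999 higher in C57BR/cdJ and 0.988 higher in c57BL/6J (adjusted p = 0.00059 and 0.000674), just short of 1 log2 unit. In PL/J and C3H/HeJ it differed by -0.74 and -0.71 (adjusted p = 0.0131 and 0.0178). Htr3b gave 5 of the 7. It was 1.45 ± 0.27 (SE) higher in C57BR/cdJ (5.03 against 3.58 in the other strains, adjusted p = 0.00143). It fell by 1.27 in NZW/LacJ (2.42 against 3.69, adjusted p = 0.00552), by 1.17 in DBA/2J (2.51 against 3.69, adjusted p = 0.0116), by 1.15 in KK/HIJ (2.53 against 3.69, adjusted p = 0.0133) and by 1.14 in P/J (2.54 against 3.69, adjusted p = 0.0141), each with an SE of 0.27. Both sides of these 4 differences lie below 4, so they give a direction on this scale and not a size of change in expression. With a pseudocount of 16 the falls were 0.51 in NZW/LacJ, 0.49 in DBA/2J, 0.48 in KK/HIJ and 0.48 in P/J, with adjusted p-values of 0.0738 to 0.105, and the rise in C57BR/cdJ was 0.78 (adjusted p = 0.00308), below the 1 log2 unit required.

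Htr1d, read by 1440166_x_at, was 1.14 ± 0.21 (SE) higher in P/J (7.44 against 6.30 in the other strains, adjusted p = 0.00111). The other Htr1d probe sets gave no call in P/J. There 1440741_at differed by 0.60 (adjusted p = 0.00458), short of the size required, and 1422290_at by -0.27 (adjusted p = 0.707), the other direction. Htr1b fell by 1.51 ± 0.21 in MRL/MpJ (5.86 against 7.36, adjusted p = 2.8e-05). Each of the 7 calls was lost when at least 1 of the strain's 2 pools was left out, where the strain has 1 pool left and the other strains supply the spread. In NZW/LacJ, DBA/2J and KK/HIJ the call of Htr3b was lost with either pool left out while the difference stayed at -1.31 to -1.12, with adjusted p-values of 0.0673 to 0.141. In P/J it was -0.98 without the female array (adjusted p = 0.205). Without the female P/J array the difference of Htr1d in 1440166_x_at was 0.55. That array is 1 of the 2 with the highest ratio of 3' to 5' signal of Gapdh, and a high ratio is a sign of degraded RNA. Without the female MRL/MpJ array the fall of Htr1b was -0.90 (adjusted p = 0.0535). Without the male C57BR/cdJ array the rise of Htr3b was 0.98 (adjusted p = 0.195).

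Sex was compared with strain as a term, males minus females. Of the 5 receptor genes, 3 were called, 2 higher and 1 lower in males, and of the 7 probe sets 4 were called. These counts stand beside a background of 57.6%, the share of all tested probe sets called for sex, so a call says little about a receptor. Htr3a averaged 7.72 ± 0.50 in males and 7.32 ± 0.43 in females (SD, n = 25 pools each), a difference of 0.40 ± 0.07 (SE, limma adjusted p = 1.52e-05), and males were higher in 22 of 25 strains. Htr1b averaged 7.06 ± 0.49 in males and 7.55 ± 0.64 in females, a difference of -0.50 ± 0.08 (adjusted p = 1.17e-05), and males were higher in 3 of 25 strains. In both genes the values of the sexes overlapped widely.

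The largest gap between the pools of a strain was 1.17 for Htr3a, in SWR/J, and 1.39 for Htr1b, in c57BL/6J, where males had 6.84 and females 8.24. Adra2c averaged 4.92 ± 0.14 in males and 4.80 ± 0.21 in females (difference 0.13 ± 0.05, SE, adjusted p = 0.0255), and 1422290_at of Htr1d averaged 4.57 ± 0.36 in males and 4.32 ± 0.41 in females (difference 0.25 ± 0.09, SE, adjusted p = 0.0189). The Adra2c probe set 1422335_at, never above 4 and not tested, averaged 3.30 ± 0.06 in males and 2.59 ± 0.14 in females. Males were higher in 25 of 25 strains there. That gap is wider than the Adra2c difference above, at a level where no expression is read. Htr3b (difference -0.02) and 1440166_x_at of Htr1d (difference 0.06) were not called, with adjusted p-values of 0.867 and 0.587.

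The arrays of the sexes differ as sets. Their lowest intensities did not overlap, at 1.63 to 1.66 in males and 1.73 to 1.74 in females, and the median difference of all tested probe sets was -0.04, or -0.0031 after quantile normalization of all arrays. Sex and a separate processing of the sexes cannot be told apart here. Transcripts of the other sex were above a log2 level of 5 in arrays of 7 strains: Xist in the male arrays of PL/J (8.97), BTBT T+tf/J (7.78), SWR/J (6.73), NON/LtJ, NZW/LacJ and NOD/LtJ, against a male median of 2.94, and the Y-linked Eif2s3y in the female array of SM/J (6.82, against a female median of 3.08). The male c57BL/6J array, with Xist at 4.98, lay just below this limit and is not among the 7. Without these 7 strains, 4 receptor genes were still called for strain, and the sex differences were 0.38 for Htr3a (adjusted p = 0.000205), -0.51 for Htr1b (adjusted p = 0.000136) and 0.11 for Adra2c, which was then not called (adjusted p = 0.110), as was 1422290_at (0.25, adjusted p = 0.0516). Male and female values correlated at r = 0.79, 0.79, 0.86 and 0.75 for Htr3a, Htr3b, Htr1d and Htr1b over the 18 strains left.

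Htr3a and Htr3b, neighbours on chromosome 9 with 0 annotated genes between them, correlated at r = 0.46 over 25 strain means (two-sided permutation p = 0.0214, adjusted p = 0.0535 over the 10 pairs of receptor genes). Spearman's rho was 0.35 (p = 0.0839, adjusted p = 0.280), and the pair was not called. In male pools alone r was 0.54 (permutation p = 0.00541) and in female pools alone 0.36 (permutation p = 0.0785). With the sexes crossed, so that the genes were read on different arrays, r was 0.39 for male Htr3a with female Htr3b and 0.29 for female Htr3a with male Htr3b. Without C57BR/cdJ and c57BL/6J, the strains farthest from the median of Htr3a, r was 0.26 (permutation p = 0.226), so the relation rests on these strains. Both are C57 strains by name, and kinship between strains was not modelled, so they may not count as independent.

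The relation was also read on each side of the widest step of Htr3b. This split was chosen on Htr3b, which is itself part of the relation. Among the 16 strains above the step r was 0.52 (permutation p = 0.0409, adjusted p = 0.135) and rho was 0.23 (permutation p = 0.385). Among the 9 strains below it r was -0.41 (permutation p = 0.268) and rho was -0.23 (permutation p = 0.552). Neither side held a called relation. P/J and RIIIS/J joined a low Htr3b (2.54 and 2.70) to an Htr3a above the median strain (7.75 and 7.65), and PL/J joined the lowest Htr3a (6.81) to an Htr3b above the step (3.76). These Htr3b values all lie below the filter level of 4, so no difference in Htr3b expression is read between these strains. C57BR/cdJ was highest in both genes. Of the 10 annotated genes on either side of Htr3a, 7 were tested and 1, Htr3b, was called for strain, and of those around Htr3b, 7 were tested and 1, Htr3a, was called. Around Htr1d 4 of 8 were called, around Htr1b 0 of 2 and around Adra2c 1 of 3. Beside the 26.1% of all tested genes called for strain, such counts are too small to set any of these regions apart. The other tested genes there, Rexo2, Rbm7, Gm5617, Usp28, Zw10 and Tmprss5, had strain ranges of 0.33 to 0.89.

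**Figure D4:**
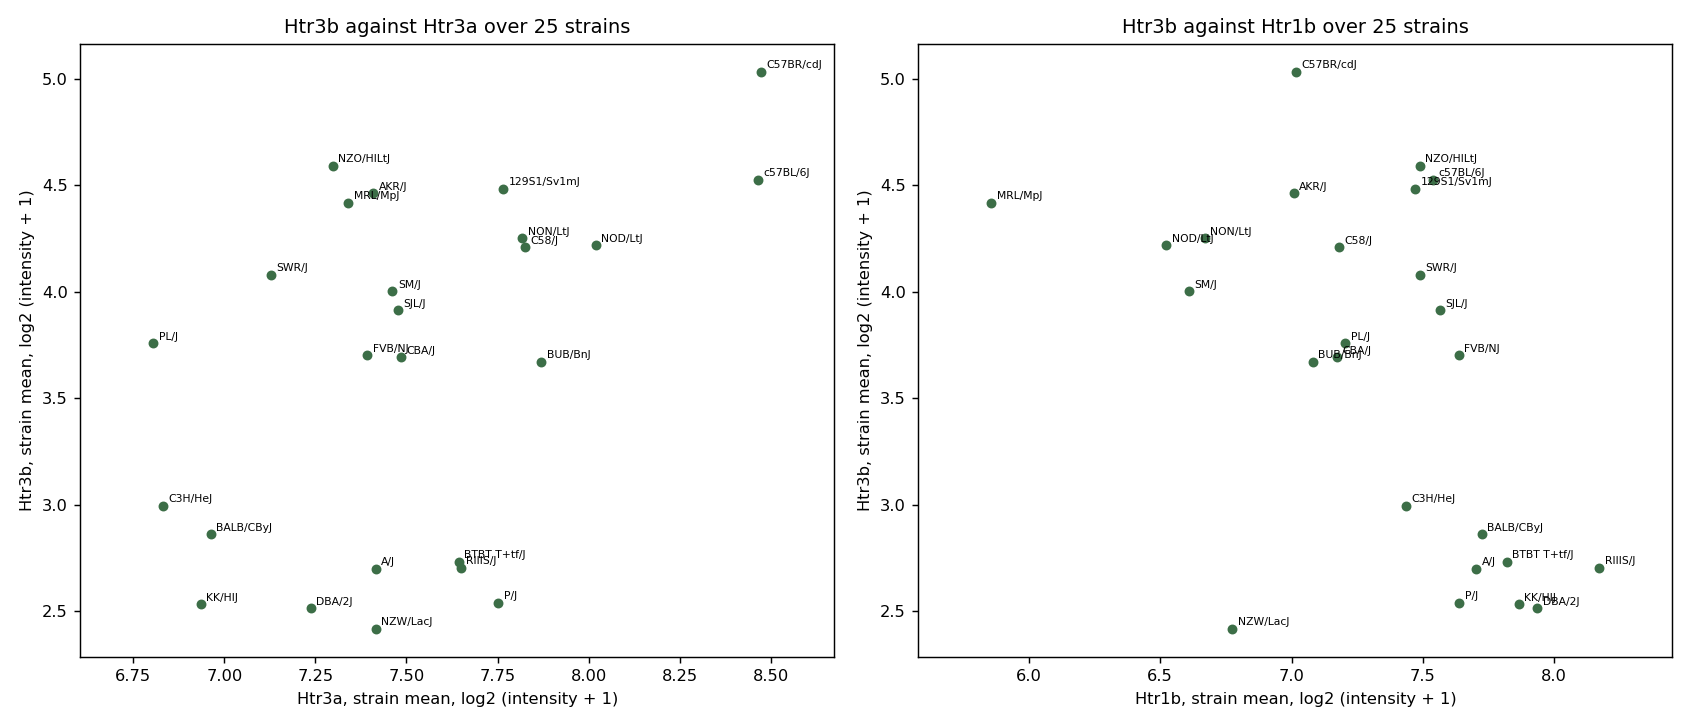
Strain means of Htr3b (vertical) against Htr3a (left, horizontal) and Htr1b (right, horizontal) over 25 strains, all as log2 (intensity + 1), with strain names. With Htr3a (r = 0.46) C57BR/cdJ and c57BL/6J lie alone at the upper right, and with Htr1b (r = -0.52) the strains low in Htr3b lie mostly at the right.

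Of the other 9 pairs of receptor genes, 3 reached an adjusted permutation p of 0.0475. Htr1b with Htr3b gave r = -0.52 (rho = -0.53, adjusted p of rho 0.0687), and r = -0.49 without MRL/MpJ and NOD/LtJ. Htr1b with Htr1d gave r = 0.48 (rho = 0.46) and r = 0.41 without the same strains. Adra2c with 1440166_x_at of Htr1d gave r = 0.50 (rho = 0.27) and r = 0.37 without PL/J and P/J. In male pools alone r was 0.26 (permutation p = 0.202) and in female pools alone 0.53 (permutation p = 0.008). The relation rests on few arrays of an Adra2c probe set that hardly varied. No pair of the 10 had an adjusted p of rho below 0.05. With 1 array left out at a time, each of these 3 calls was lost in 17 to 21 of 50 cases.

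By the lower of the male and the female correlation over 25 strains, the genes most like Htr3a among 11203 others were Mtmr7 (0.70), Ubash3b (0.63), Prxl2c (0.63), Zfp874a (0.60) and Scnm1 (0.59). Of these Ubash3b also lies on chromosome 9. The genes most like Htr3b were Sec24d (0.59), Ift20 (0.58), Csrp2 (0.57), Lonp2 (0.54) and AI987944 (0.53). Those most like Htr1d were Skiv2l (0.68), Thy1 (0.68), Clasp1 (0.67), Crmp1 (0.66) and Nat8l (0.66). Those most like Htr1b were Dclk1 (0.61), Rimkla (0.60), Cdc73 (0.55), Camk2g (0.54) and Prkdc (0.53). Thy1 encodes a surface protein of neurons, Crmp1 a protein of growing axons and Camk2g a calcium-dependent kinase. These genes are the extremes of a search, and the likeness is given with no test.

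The tissue label was read against marker genes. All 8 sensory neuron markers were tested, with mean levels of 9.08 to 13.38, and 0 of 4 spinal cord markers (Mog, Gfap, Chat, Slc6a5) passed the filter. Markers of other tissues were present and varied among strains. All 4 skeletal muscle markers were tested, and their mean after centring each gene on 0 ran from -1.15 in PL/J to 2.76 in SM/J. The same mean ran from -1.19 in SJL/J to 1.28 in NON/LtJ for 2 adipocyte markers, from -0.66 in BUB/BnJ to 1.36 in NON/LtJ for 2 red cell markers and from -1.71 in RIIIS/J to 0.30 in MRL/MpJ for 4 Schwann cell markers. Strain means of each receptor gene were set against 14 marker lists, 70 relations in all, and 2 were called. Htr1b fell as the fibroblast list (Col1a1, Col3a1, Dcn, Lum, Pdgfra) rose: r = -0.71 (rho = -0.72, adjusted permutation p = 0.0056 for both), -0.64 without NOD/LtJ and NON/LtJ, and -0.68 without the 7 strains named above. All 5 genes of the list correlated negatively with Htr1b, at -0.77 to -0.35. In male pools r was -0.30 (permutation p = 0.146) and in female pools -0.79, and the difference between the sexes was not tested. The summed level of the 5 fibroblast genes ran from 45.55 in the lowest strain to 51.15 in the highest.

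Htr1d went with the markers of large myelinated neurons (Nefh, Pvalb, Ntrk3, Calb1 and Vsnl1): r = 0.64 (rho = 0.66, adjusted permutation p = 0.0294), 0.65 without NZW/LacJ and A/J, and 0.74 without the 7 strains. All 5 genes correlated positively with Htr1d, from 0.08 for Calb1 to 0.78 for Ntrk3, the neurotrophin-3 receptor of muscle and touch afferents, and r was 0.40 in male pools and 0.68 in female pools. The summed level of this list ran from 47.24 to 51.09. For these whole ganglia, fewer cells of a type and less RNA per cell cannot be told apart, and the part of cell composition in either relation was not tested. Htr3a, Htr3b and Adra2c had no called relation with any list.

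**Figure D5:**
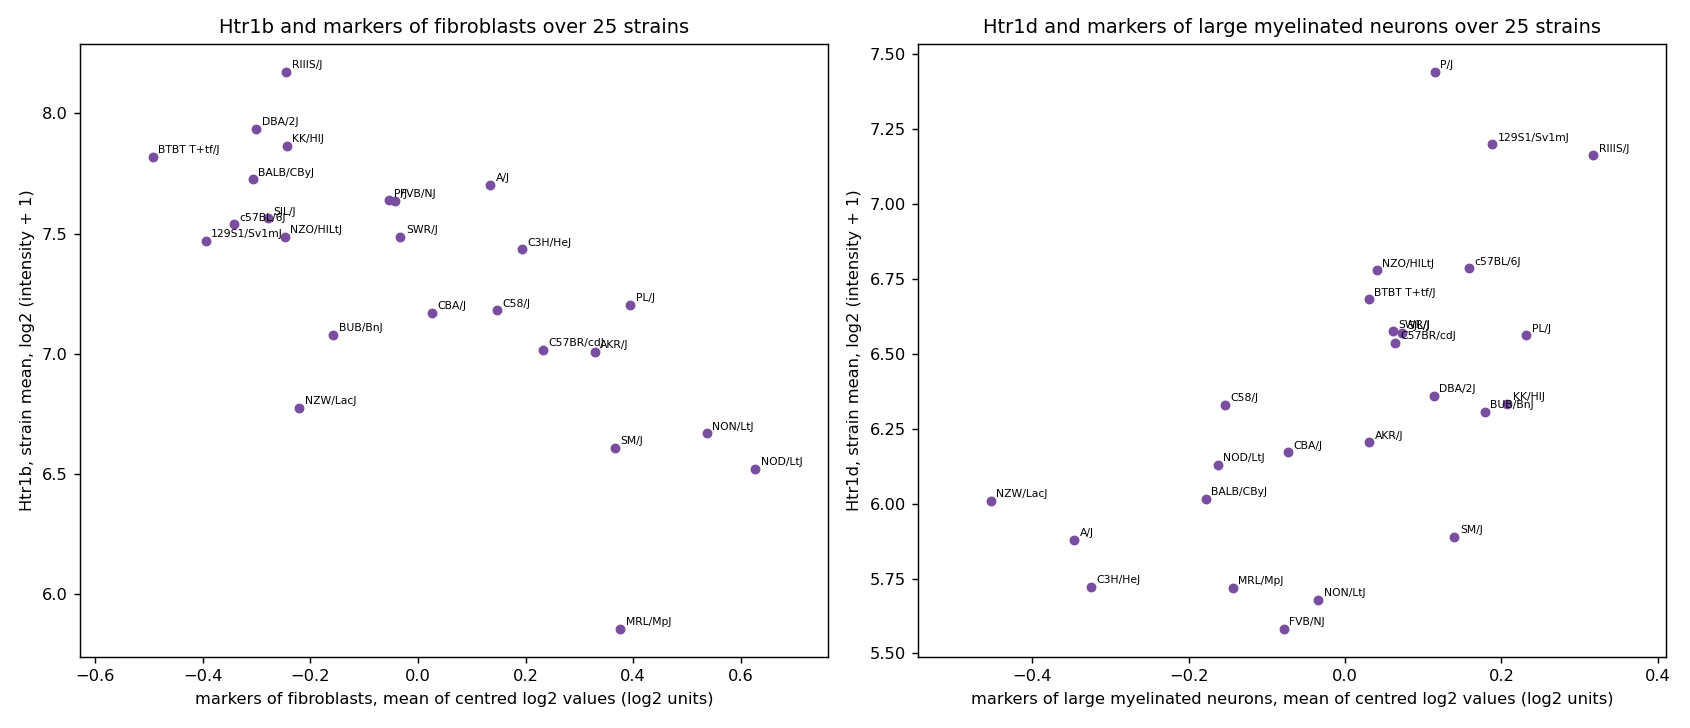
Strain means of Htr1b against markers of fibroblasts (left) and of Htr1d against markers of large myelinated neurons (right) over 25 strains. The vertical axis is log2 (intensity + 1), the horizontal axis the mean of the list's log2 values after each gene was centred on 0; Htr1b falls to the right (r = -0.71) and Htr1d rises (r = 0.64).

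Other genes of serotonin and noradrenaline signalling were read from lists chosen by function, and their counts stand beside the 26.1% of all tested genes called for strain. Of 9 other serotonin receptors, 5 were tested and 3 differed among strains, too few to set the list apart. Htr1f, another inhibitory receptor and triptan target, ranged over 2.88 log2 units, from 2.99, below the filter level, in MRL/MpJ, the strain lowest in Htr1b, to 5.87 in NZO/HILtJ (adjusted p = 3.16e-07). Htr4, a receptor that raises cyclic AMP, ranged over 1.93, from BUB/BnJ to SWR/J (adjusted p = 0.00114), and Htr5b over 1.81, from BALB/CByJ to P/J (adjusted p = 3.33e-06). Htr1a and Htr7 were not called, with ranges of 0.98 and 0.69. Htr2b, Htr2c, Htr5a and Htr6 did not pass the filter. Of 7 other adrenergic receptors 1 had a probe set and 0 were tested.

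Of 12 genes of amine synthesis, transport and breakdown, 5 were tested and 3 called: Th, the rate-limiting enzyme of catecholamine synthesis (range 2.81, from NZW/LacJ to P/J), Maob, which oxidises amines (2.03, from SM/J to NZW/LacJ), and Slc18a2, the vesicular monoamine transporter (1.36, from NZW/LacJ to AKR/J). Maob was above 4 in 6 arrays and Slc18a2 in 4. Dbh and Maoa were tested and not called. Ric3 and Tmem35a, chaperones of channels of the nicotinic and serotonin receptor family, were tested and not called, with adjusted p-values of 0.150 and 0.0903. Of 23 genes of inhibitory and phospholipase-coupled G proteins and their effectors, 19 were tested and 6 called, a share near the 26.1% of all genes and no result about the list. The 6 were Kcnj3, a potassium channel opened by G proteins (range 1.93), the phospholipase Plcb1 (1.88), the receptor kinase Grk3 (1.70), the adenylyl cyclase Adcy1 (1.07), the arrestin Arrb1 (0.86) and the regulator Rgs4 (0.81). Over all these lists the called genes had adjusted p-values from 2.76e-08 for Th to 0.0148 for Rgs4.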

How the data were processed

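Dorsal root ganglion RNA was hybridised to 1 Affymetrix array for each sex of each strain. The deposited values are linear intensities that the authors computed under R 2.6.2 by GCRMA, which corrects background and normalizes probes, per the submitters' processing notes. Here they were taken as log2 of the intensity plus 1. Genes were named from the platform's annotation, by probe sets with exactly 1 symbol, and the brightest probe set stood for a gene. Probe sets above 4 in at least 2 arrays were tested, 22205 of 45037. Strain and sex were fitted with limma 3.58.1 in R 4.3.3 (a mean for each strain, sex as a term) and p-values of every tested probe set were adjusted together (Benjamini-Hochberg). A strain's male and female pool are its 2 replicates, so a strain difference that depends on sex counts as error. Correlations over strains were tested with 100000 two-sided permutations, whose smallest possible p is 1e-05. The fit was tested on simulated data. No arrays were identical, and their number limits the precision.

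The receptors, the gene lists and the markers were chosen with earlier results of these data known. All probe sets of the receptors, their 3 highest and 3 lowest strains and the 5 most similar genes are named, with the called genes of the lists. Alternatives covered the pseudocount, quantile normalization, array weights, the filter, the sex term and the omission of arrays or strains.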

Additional observations from a re-analysis of the deposited data

How the results depend on the processing

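The number of receptor genes called for strain was 4 under every alternative but the filter of 25 arrays above 4, where it was 3 because Htr3b was no longer tested, and it was 4 with each of the 50 arrays left out in turn. The number called for sex was 3 with each array left out and under the other alternatives, and 2 without the 7 strains whose arrays hold transcripts of the other sex, an alternative chosen after seeing the data. Calls of a single strain depended on the scale of low values: 7 became 2 with a pseudocount of 16, 12 with none and 2 with the filter of 25 arrays, and 5 to 10 with an array left out. With a pseudocount of 16, which draws low values together, all 5 calls of Htr3b were lost. The rise in C57BR/cdJ, 0.78, missed only the size required (limma adjusted p = 0.00308). The falls in NZW/LacJ, DBA/2J, KK/HIJ and P/J also missed the p threshold (limma adjusted p = 0.0738 to 0.105). Both calls in P/J were lost with array weights as well (limma adjusted p = 0.0728 for 1440166_x_at of Htr1d and 0.277 for Htr3b). Without the 2 arrays of highest Gapdh 3' to 5' signal P/J has 1 pool left. Its differences were then 0.56 for 1440166_x_at of Htr1d and -0.9975 for Htr3b, both short of the size required. Over all probe sets, 8311 were called for strain with array weights, against 5475.

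The correlation of Htr3a with Htr3b ran from 0.41 to 0.50 with an array left out, and its adjusted p from 0.0342 to 0.107, below 0.05 in 15 of 50 cases. It was 0.49 with a pseudocount of 16 (adjusted p = 0.0376) and 0.50 without SM/J and PL/J (adjusted p = 0.0483). It was 0.55 without the 7 strains (adjusted p = 0.0542) and 0.41 without the 2 arrays of highest Gapdh 3' to 5' signal (adjusted p = 0.141). Reading it on each side of the step in Htr3b was added after seeing the data. Each gene has 1 probe set, so no other pair of probe sets could be read.

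The 3 called pairs lost their call in many cases: Htr1b with Htr3b in 17 of 50 arrays left out (r from -0.58 to -0.38), Htr1b with Htr1d in 21 (0.45 to 0.52) and Adra2c with Htr1d in 18 (0.35 to 0.65). The lowest r of Adra2c with Htr1d came without the female P/J array, and the weakest of Htr1b with Htr3b (-0.38) without the male MRL/MpJ array. Within male or female arrays alone none of the 3 was called. The replicate numbers name the male and the female pool, so the sex term is the replicate block of the strain fit, and the sex comparison is paired by strain. With no replicate block 4 receptor genes were again called for strain, as were 7 differences of a single strain, while over all probe sets 2752 were called, against 5475. Levels near the lower end of the scale, as for Htr3b and Adra2c, are limited by signal over background.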
